A study of Mus musculus with 8 samples.

Results

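The 9 genes described here encode chondroitin sulfate proteoglycans and other surface or secreted markers of oligodendrocyte progenitors. They were chosen by name from the 56980 gene IDs of the deposited count table: Cspg4, Ptprz1, Vcan, Cspg5, Bcan, Ncan, Lhfpl3, C1ql1 and Matn4. All 9 were found and all 9 passed the filter on low counts, which left 18905 genes. The cells were progenitors from cortices of wild-type C57BL/6 pups 6 to 8 days old, caught on dishes bearing a PDGFRα antibody after lectin dishes had held back microglia and endothelial cells. They were expanded in 25 mM glucose with PDGF-AA and bFGF, and bFGF was washed out before the experiment. High glucose (HG) wells stayed at 25 mM. In low glucose (LG) wells the medium was stepped through 12.5 mM and 5 mM to 2.5 mM by day 3, and all wells kept 10 ng/mL PDGF-AA until harvest on day 5. Each group holds 4 libraries with replicate numbers 1 to 4. In both groups numbers 1 and 2 carry the same preparation code, while numbers 3 and 4 each carry their own, so the 4 pairs come from 3 codes. As a model, these are cultured cells, taken out of the tissue of the cortex with its neurons and vessels.

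Chondroitin sulfate proteoglycans are core proteins that carry long, sulfated sugar chains. In the brain the lecticans versican (Vcan), brevican (Bcan) and neurocan (Ncan) bind hyaluronan in the matrix around cells, while NG2 (Cspg4), neuroglycan C (Cspg5) and the receptor-type phosphatase PTPRZ1 span the membrane. NG2 and PDGFRα together are the classical surface markers of oligodendrocyte progenitors. Lhfpl3 encodes a membrane protein of the LHFPL tetraspan family, C1ql1 a secreted protein with a C1q domain that binds the adhesion receptor Adgrb3, and Matn4 a matrilin of the extracellular matrix.

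Total counts per library ran from 50864130 to 65733928, with HG and LG libraries overlapping (two-sided exact permutation test, 70 assignments, p = 0.543). The library pairs with the same number resembled each other more than they resembled libraries of other numbers. Levels are given as CPM, counts scaled to library size. Microglial markers summed to at most 2.49 CPM in a library, and Cx3cr1, Itgam and C1qc, 3 of the 12, had no count in any. Of 10 endothelial markers, Cdh5 and Cldn5 had no count, and the sum reached at most 8.10 CPM. The 12 astrocyte markers summed to 1092 to 2534 CPM in HG and 983 to 2736 CPM in LG, and Gjb6 was the 1 marker under 1 CPM on average. The 12 neuron markers summed to 921 to 1084 CPM in HG and 897 to 958 CPM in LG, of which Map2 alone made 875 CPM on average. The defining progenitor genes Pdgfra and Olig2 averaged 1770 and 1135 CPM.

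The letters of 3 coding regions are shown first, because these genes had the lowest unadjusted p in LG against HG and lie toward the ends of the members' range of base composition. These are the first 150 coding bases, read from the GENCODE M21 transcripts of GRCm38, with each CG dinucleotide in capitals.
C1ql1: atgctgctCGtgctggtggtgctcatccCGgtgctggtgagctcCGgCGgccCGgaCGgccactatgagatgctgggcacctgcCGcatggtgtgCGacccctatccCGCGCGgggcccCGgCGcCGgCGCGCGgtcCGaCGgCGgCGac
Bcan: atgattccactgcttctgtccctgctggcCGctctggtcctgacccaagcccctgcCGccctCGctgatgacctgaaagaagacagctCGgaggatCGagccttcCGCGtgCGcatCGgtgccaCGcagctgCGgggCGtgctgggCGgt
Vcan: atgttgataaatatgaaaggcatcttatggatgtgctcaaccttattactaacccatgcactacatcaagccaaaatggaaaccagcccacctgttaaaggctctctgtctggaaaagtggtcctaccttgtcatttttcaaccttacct
The C1ql1 stretch had 74.7% G or C and 21 CG dinucleotides, and its whole coding region of 774 bases had 65.4% G or C. The Bcan stretch had 66.0% and 13 CG dinucleotides, with 60.9% over 2649 coding bases. The Vcan stretch had 40.7% and no CG dinucleotide, with 44.2% over 10062 coding bases. C1ql1 lies on the minus strand at chr11:102939264-102946688 and has 2 exon blocks. Bcan lies on the minus strand at chr3:87987531-88000230 with 15 exon blocks, and Vcan on the minus strand at chr13:89655312-89742509 with 16.

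The phosphatase gene and the neural lecticans were the most abundant members per kilobase of exon. Ptprz1 had 175 ± 20.4 CPM per kilobase (SD over 8 libraries, with both groups pooled), Ncan 145 ± 13.2, Bcan 120 ± 15.8 and Lhfpl3 108 ± 9.39. Among these 4, neighbours in the order overlapped in their range over libraries. Cspg5 followed at 57.3 ± 3.79 CPM per kilobase, apart from its neighbours on both sides. C1ql1 at 40.9 ± 7.54 and Cspg4 at 37.4 ± 8.19 overlapped, and Vcan at 20.7 ± 1.97 lay below both. Matn4 was the lowest at 0.867 ± 0.558 CPM per kilobase, from 123 counts or more per library. With the longest transcript as the length, Ptprz1 stood at 309 and Cspg4 at 54.9 CPM per kilobase. On that length Bcan, at 155, came above Ncan, at 145, and Cspg4 above C1ql1.

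**Figure D1:**
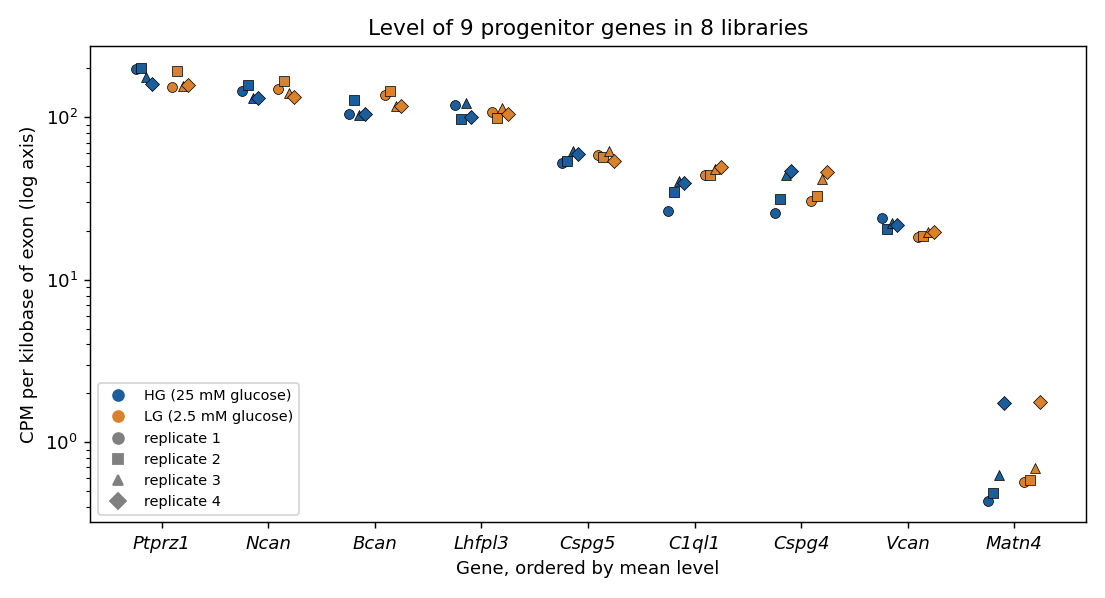
CPM per kilobase of exon (log axis) for the 9 genes, ordered by mean level, with 1 point for each of the 8 libraries (HG blue, LG orange, shape for the replicate number). Ptprz1 sits at the top around 175 CPM per kilobase, and Matn4 stands far below the rest, with its number 4 libraries above the others in both groups.

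Whether low glucose changed these genes was asked by comparing LG with HG. No member passed in edgeR without a block, where 0 of 18905 genes (0%) passed and all members had an adjusted p of 0.9999. An unadjusted p under 0.05 was found for 745 genes, among them 3 members, C1ql1, Vcan and Bcan. In that design limma-voom passed 0 genes and DESeq2 passed 4. Blocking on the replicate number let 79 genes (0.418%) pass in edgeR, and again no member. That count depended on the pairs: leaving out pair 1 gave 6 genes, pair 2 gave 0, pair 3 gave 39 and pair 4 gave 148. Of the 9 log2 fold changes 6 were above 0 and 3 below, and their median with the block was 0.06, against 0.00 over all tested genes. Since cultures were measured whole, fewer cells of a type and less RNA per cell cannot be told apart.

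C1ql1 had the largest difference of the 9. It was at 39.1, 50.8, 59.7 and 57.9 CPM in HG replicates 1 to 4 and at 65.4, 64.8, 71.0 and 72.9 CPM in LG replicates 1 to 4. Every LG library lay above every HG library, and HG replicate 1 was the lowest of all. The HG mean was 51.9 ± 9.35 CPM and the LG mean 68.5 ± 4.04 CPM (SD, n = 4 each). The log2 fold change was 0.40 (SE 0.12, edgeR adjusted p = 0.9999) without the block and 0.42 (SE 0.080, edgeR adjusted p = 0.0523) with it. The pair differences were 0.74, 0.35, 0.25 and 0.33 on the log2 scale, so the first pair exceeded the others. DESeq2 with the replicate block called C1ql1 (log2 fold change 0.42, adjusted p = 0.000343), in a fit that called 474 genes (2.51%), 169 of them as higher (0.894%). Numbers 1 and 2 share a preparation code, and in edgeR C1ql1 did not pass with the preparation as block (0.41, adjusted p = 0.199) or on sums per preparation with that block (0.38, adjusted p = 0.0992).

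Vcan showed the opposite direction. Its HG libraries were at 350, 297, 322 and 316 CPM and its LG libraries at 267, 269, 284 and 286 CPM, in order of replicate number. The groups did not overlap. The HG mean was 321 ± 21.7 CPM and the LG mean 277 ± 10.0 CPM (SD, n = 4 each), with a log2 fold change of -0.22 (SE 0.071) without the block and -0.21 (SE 0.063, edgeR adjusted p = 0.184) with it. C1ql1 and Vcan were thus the 2 members whose groups did not overlap, which 2.89% of all tested genes showed.

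Brevican, a lectican of the brain, was higher in LG in each pair. Its HG libraries were at 424, 517, 419 and 426 CPM and its LG libraries at 555, 591, 478 and 476 CPM. HG replicate 2 stood above LG replicates 3 and 4, so the groups overlapped. The log2 fold change was 0.23 with and without the block (SE 0.064 with it, edgeR adjusted p = 0.150), and DESeq2 with the block called it at adjusted p = 0.0142. Neurocan was at 1039, 1137, 941 and 953 CPM in HG and at 1072, 1208, 1010 and 962 CPM in LG. Its LG library was the higher one in each pair, but by only 0.01 to 0.10 on the log2 scale, and the fold change with the block was 0.06 (95% interval -0.08 to 0.20). The estimates of the 3 lecticans did not share a sign, and none of the 3 genes passed in edgeR. The difference between them was not tested.

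Ptprz1, whose secreted form is phosphacan, had HG libraries at 2842, 2885, 2535 and 2302 CPM and LG libraries at 2188, 2739, 2238 and 2248 CPM. The LG library was the lower one in each pair, by 0.38, 0.07, 0.18 and 0.03, and the groups overlapped because LG replicate 2 was high. The log2 fold change was -0.17 with the block (SE 0.080, edgeR adjusted p = 0.397). Ptprz1 and Vcan were lower in LG in 4 of 4 pairs, as were 11% of all tested genes. C1ql1, Bcan, Ncan and Matn4 were higher in 4 of 4, as were 10.8% of all tested genes.

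The NG2 gene had a fold change near 0. Cspg4 was at 306, 374, 524 and 557 CPM in HG and at 365, 390, 500 and 551 CPM in LG, with differences of 0.25, 0.06, -0.07 and -0.01 in pairs 1 to 4. Its log2 fold change with the block was 0.06, with a 95% interval from -0.09 to 0.21. Cspg5 ran from 526 to 623 CPM in HG and from 541 to 624 CPM in LG, with an interval from -0.12 to 0.18. Lhfpl3 ran from 313 to 392 CPM in HG and from 318 to 366 CPM in LG, with an interval from -0.18 to 0.09. These 3 genes had pair differences of both signs. Exons of the lincRNA gene A930003O13Rik, on the other strand, cover 17.6% of the Lhfpl3 exons, and its counts were at most 3.40% of those of Lhfpl3. Matn4 was at 2.26, 2.53, 3.25 and 9.03 CPM in HG and at 2.96, 3.05, 3.60 and 9.20 CPM in LG. Its log2 fold change with the block was 0.20 (SE 0.12, edgeR adjusted p = 0.500). Matn4 shares 2.88% of its exons with Rbpjl on the other strand, and Rbpjl counts reached 22.1% of Matn4 counts in a library.

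**Figure D2:**
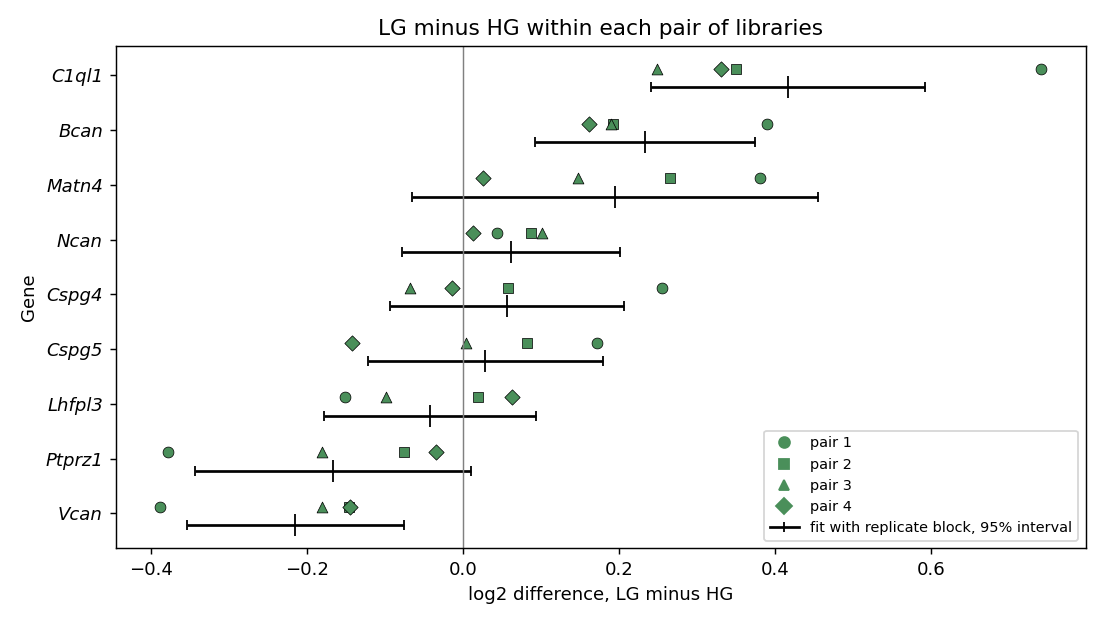
The log2 difference of LG minus HG in CPM for each gene in each of the 4 pairs (green symbols), with the fitted log2 fold change and its 95% interval from edgeR with the replicate block (black). The 4 C1ql1 points lie from 0.25 to 0.74 and the 4 Vcan points from -0.39 to -0.14, while Cspg4, Cspg5 and Lhfpl3 straddle 0.

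With the block, each of the 9 log2 fold changes had the sign of the median over all genes within 1 percentage point of the member's GC content. For how many of all tested genes this held was not counted. Those of Cspg5 (0.03), Lhfpl3 (-0.04), Cspg4 (0.06) and Ncan (0.06) were near 0. The GC content of the longest transcript was 65.8% for C1ql1, 60.7% for Bcan, 59.2% for Cspg4, 55.1% for Ncan, 51.3% for Cspg5, 51.2% for Matn4, 44.5% for Ptprz1, 43.7% for Vcan and 41.5% for Lhfpl3. Across 18424 genes the log2 fold change with the block had a rank correlation of 0.356 with GC content, a description over genes that are not independent replicates. After a smooth trend on GC and length was removed from each library this was 0.0028. In that fit 256 genes (1.35%) passed, from 23 to 485 when 1 pair was left out, 56 as higher (0.296%), and C1ql1 was the 1 member among them, with a log2 fold change of 0.34 (SE 0.051, edgeR adjusted p = 0.0107). The pair differences of C1ql1 with the trend taken off were 0.43, 0.37, 0.32 and 0.23. Only 44 genes lay within 1 percentage point of its GC content, with a median of 0.13 before and 0.06 after the removal, so the trend there rests on few genes. The C1ql1 call ended without pair 1 (0.28, edgeR adjusted p = 0.0776), without pair 2 (0.32, edgeR adjusted p = 0.121) and without pair 3 (0.34, edgeR adjusted p = 0.0503), while the log2 fold changes stayed near that with all pairs. It held without pair 4 (0.36, edgeR adjusted p = 0.00686).

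The other large differences shrank in the same fit. Vcan went from -0.21 to -0.09 (edgeR adjusted p = 0.456) and Bcan from 0.23 to 0.11 (0.358). Ptprz1 went from -0.17 to -0.09. The 1673 genes within 1 percentage point of the GC content of Vcan had a median of -0.06 with the block, and the 493 around Bcan a median of 0.10. Cspg4 changed sign, from 0.06 to -0.02, and so did Lhfpl3, from -0.04 to 0.02. What ties base composition to the group difference was not tested.

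**Figure D3:**
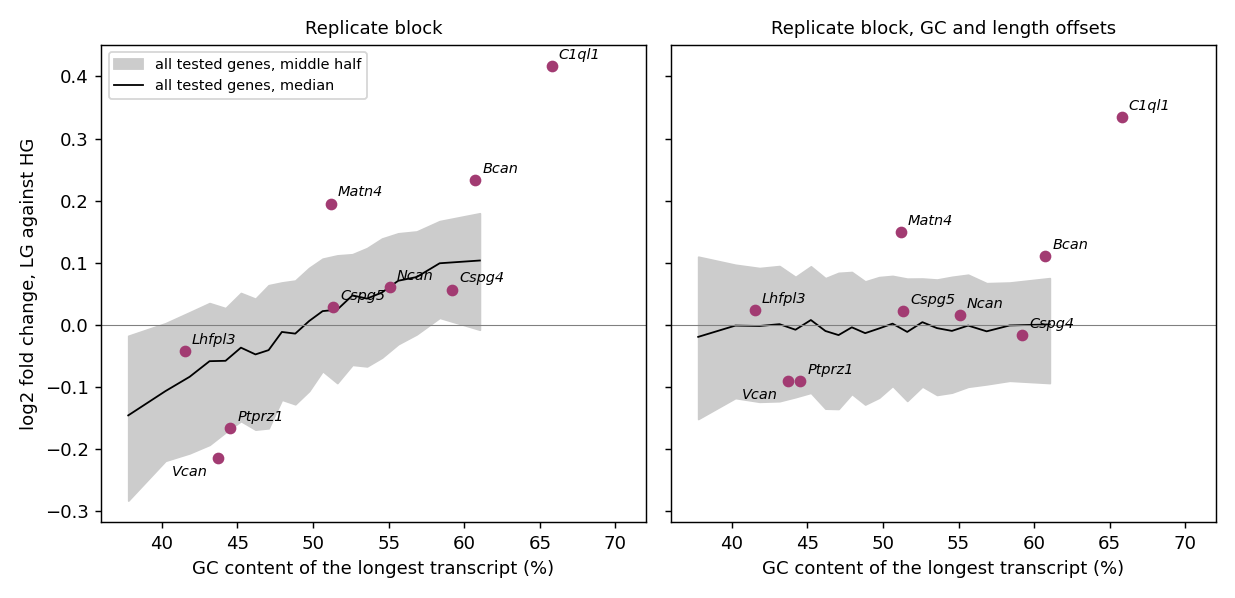
Log2 fold change of LG against HG on GC content of the longest transcript (%), in the fit with the replicate block (left) and with GC and length offsets as well (right), for the 9 genes (labelled points) and for all tested genes in 20 bins of GC content (line at the median, band over the interquartile range). C1ql1, at 0.42 on the left and 0.34 on the right, lies above the band of the bin with the highest GC content, while Vcan at -0.09 lies within it on the right.

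Cspg4 and Matn4 had the widest spans between the means of the preparation codes on the log2 scale. For both, and also for Cspg5, Lhfpl3, Ncan and Ptprz1, this span exceeded the size of the mean pair difference. For Vcan, Bcan and C1ql1 it did not. A span over 3 codes and a mean of signed pair differences are unlike measures. In the test of the 3 preparation codes with the group as a term, 2585 genes (13.7%) passed (1626 without HG replicate 3, 1618 without HG replicate 4 and 1575 without LG replicate 3), and 2 of the 9 members were among them. Cspg4 passed at an edgeR adjusted p of 0.00227 and Matn4 at 2.7e-05. Cspg4 averaged 359 CPM over the 4 libraries of the code shared by numbers 1 and 2, 512 CPM over the number 3 libraries and 554 CPM over the number 4 libraries. No Cspg4 library of 1 code overlapped those of another. Matn4 averaged 2.70, 3.43 and 9.11 CPM in the same order, also without overlap. The share of all tested genes without overlap between the 3 codes was not counted. The Matn4 difference between codes spanned 1.75 on the log2 scale against a mean pair difference of 0.20. Ncan went the other way, at 1114, 976 and 957 CPM, and did not pass (edgeR adjusted p = 0.183). Cspg4, Matn4 and Ncan were the 3 members whose number 1 and 2 libraries did not overlap numbers 3 and 4, which 23.1% of all tested genes showed. With GC and length offsets Bcan and Ncan passed as well (edgeR adjusted p = 0.00539 and 0.0413), where 3175 genes (16.8%) passed.

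The marker lists differed in how many of their genes passed between the same codes by edgeR. The summed level of the 9 members lay at 5454 to 6153 CPM in the code of numbers 1 and 2, at 5575 to 5819 CPM in number 3 and at 5485 to 5542 CPM in number 4. Ptprz1 made the largest part of this sum, at 2663, 2386 and 2275 CPM on average in that order, followed by Ncan. The sum therefore does not show how the less abundant members, such as Cspg4, moved. Of the 26 other progenitor markers 11 passed, and the 26 summed to 9383 to 10370 CPM in the code of numbers 1 and 2, to 13137 to 13329 CPM in number 3 and to 13893 to 13993 CPM in number 4. The summed astrocyte markers lay at 2452 to 2736 CPM in the code of numbers 1 and 2, at 1125 to 1177 CPM in number 3 and at 983 to 1092 CPM in number 4, and all 12 passed between codes by edgeR. The summed markers of myelinating oligodendrocytes lay at 564 to 646, 638 to 826 and 822 to 912 CPM, and 8 of 11 tested passed. Cnp alone made 476 CPM of that sum on average, and 5 of the 12 markers, Mog, Opalin, Aspa, Ermn and Mal, averaged under 1 CPM. The neuron markers overlapped between numbers 1 and 2 and number 3, at 926 to 1084 and 938 to 981 CPM, with 897 to 921 CPM in number 4, and 2 of 9 tested passed. Cspg4 also marks pericytes, where Pdgfrb is a defining gene. Pdgfrb averaged 0.435 and Rgs5 0.0462 CPM per kilobase over the libraries, against 37.4 for Cspg4. Of the 12 fibroblast and mural markers 8 averaged under 1 CPM and 7 were tested. Of these Cspg4, Pdgfrb and Notch3 passed between codes (edgeR adjusted p = 6.98e-07 for Pdgfrb and 5.17e-05 for Notch3), and Acta2, Tagln, Rgs5 and Col1a1 did not. Pdgfrb, at 3.13 to 5.52, 0.181 to 0.225 and 0.153 to 0.177 CPM, and Notch3, at 27.1 to 45.6, 8.04 to 8.82 and 7.19 to 7.57 CPM, were highest in the code of numbers 1 and 2, where Cspg4 was lowest. The part of these cell types in the differences between codes was not tested.

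The promoters of the 2 members that passed between codes are shown for comparison, as the 250 bases before the start site from RefSeq (GRCm38.p6), given 5′ to 3′ on the gene's strand. Capitals mark GGGCGG or its reverse complement CCGCCC, the GC box, and CANNTG, the E-box, which reads the same way on both strands.
Cspg4: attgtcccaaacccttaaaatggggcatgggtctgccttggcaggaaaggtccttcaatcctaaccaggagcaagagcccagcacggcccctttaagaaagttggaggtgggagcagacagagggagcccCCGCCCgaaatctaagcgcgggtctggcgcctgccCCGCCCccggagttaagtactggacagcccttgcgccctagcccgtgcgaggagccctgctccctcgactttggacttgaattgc
Matn4: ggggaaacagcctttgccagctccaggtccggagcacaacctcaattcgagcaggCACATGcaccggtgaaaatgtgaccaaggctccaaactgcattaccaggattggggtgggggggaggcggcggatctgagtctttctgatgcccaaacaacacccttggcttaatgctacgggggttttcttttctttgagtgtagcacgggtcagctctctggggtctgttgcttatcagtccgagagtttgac
The Cspg4 window is chr9:56864854-56865103 on the plus strand and held 2 GC boxes and no E-box. The Matn4 window is chr2:164405161-164405410 on the minus strand and held no GC box and 1 E-box. Among 32851 such windows 32.7% held a GC box and 66.2% an E-box, so neither pattern was rare. The letters ACAAAG and ACAATG, cores bound by Sox factors, were in neither window on either strand, and 16.5% and 10.7% of all windows held them. RefSeq windows were found for 7 of the 9 members, not for Cspg5 and C1ql1.

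**Figure D4:**
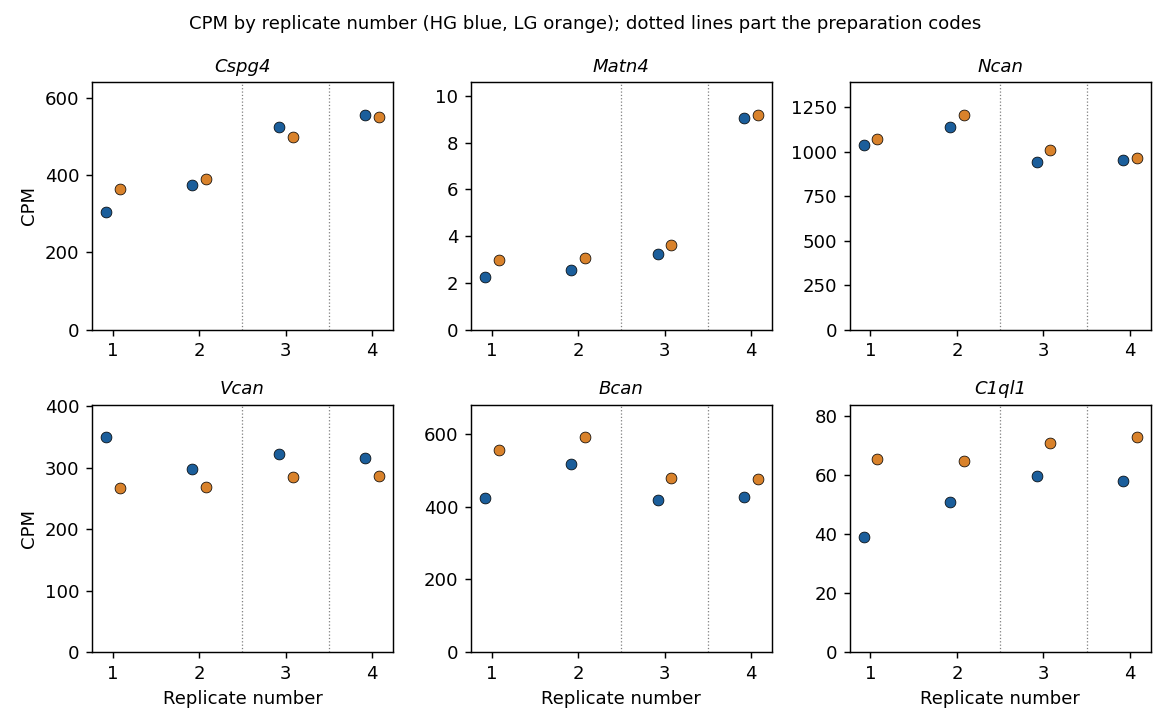
CPM on a linear axis from 0 for 6 of the genes by replicate number, HG in blue and LG in orange, with dotted lines between the preparation codes. Cspg4 steps up from numbers 1 and 2 to numbers 3 and 4 in both groups and Matn4 is high at number 4, whereas for C1ql1 and Bcan the LG point is above the HG point at each number and for Vcan below it.

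Genes that build or handle chondroitin sulfate were read from lists. Of 29 tested genes of chain synthesis 16 were higher and 13 lower in LG, none of them passed with the block, and the median was 0.05 (log2). The most abundant per kilobase were Papss1, which makes the sulfate donor (0.07), Chst11, a chondroitin sulfotransferase (-0.15), and Slc35b2, the sulfate donor transporter (0.16). Chst7, another chondroitin sulfotransferase, passed as lower with the block and the offsets at -0.27 (edgeR adjusted p = 0.0396), against 1.06% of all genes. It averaged 29.5 CPM in HG and 26.6 CPM in LG and was at -0.15 with the block alone, and its LG library was above its HG library in 1 pair.

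Partners in the matrix showed no call. Of the 15 tested hyaluronan, link protein and tenascin genes 7 were higher and 8 lower, with a median of -0.04 with the block. Tnr, the tenascin-R that binds lecticans, was at -0.21 with the block (edgeR adjusted p = 0.530), the hyaluronidase gene Hyal2 at 0.15 and Cemip2 at -0.22. The link protein gene Hapln1 was under the filter, at 0.0626 CPM. Of 22 receptors and binding partners 8 were higher and 14 lower, and none passed in the 3 fits. Among them were Ptn (-0.19), the pleiotrophin that binds PTPRZ1, Cntn1 (-0.11), a neural adhesion molecule and PTPRZ1 ligand, and Pdgfra (-0.09). Adgrb3, the C1ql1 receptor gene, was at -0.08, with a mean of 83.7 CPM.

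Of 19 tested proteases and inhibitors 8 were higher and 11 lower with a median of -0.06. Mmp15, a membrane-type metalloproteinase, passed as lower with the block and the offsets at -0.25 (edgeR adjusted p = 0.0297) and was at -0.14 with the block alone. It was at 610, 711, 692 and 778 CPM in HG and at 634, 607, 609 and 672 CPM in LG, so pair 1 went against the others. Timp2 was at 0.20 and Adam10 at -0.07 with the block. Adamts4, an aggrecanase that cuts brevican, was at -0.36 (edgeR adjusted p = 0.216) and lower in 4 of 4 pairs, as were 11% of all tested genes. Adamts5, of the same list, went the other way, at 0.12 (edgeR adjusted p = 0.613) and higher in LG in 3 pairs.

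For comparison, 10 of 15 heparan sulfate proteoglycan genes were higher and 5 lower, with a median of 0.11, and none passed. Sdc3, the neural syndecan, was at 0.17, Gpc1 at 0.18 and Agrn at 0.11 with the block. Of 26 other progenitor markers 14 were higher and 12 lower, with a median of 0.01. Gpr17, a receptor of late progenitors, was at 0.38 with the block (edgeR adjusted p = 0.0523) and passed as higher with the offsets as well (0.33, adjusted p = 0.0156 by edgeR). Its HG libraries were at 682, 792, 1241 and 2079 CPM and its LG libraries at 971, 1014, 1695 and 2424 CPM. Each LG library was above its HG partner, while the groups overlapped. The semaphorin gene Sema5a passed in the same fit at 0.38 and Kcnip3, a potassium channel partner, at -0.34 (edgeR adjusted p = 0.0215 and 0.0316). With the block alone Sema5a was at 0.28 and Kcnip3 at -0.26, and neither passed (edgeR adjusted p = 0.199 and 0.153). Sema5a was higher in LG in 3 pairs, and its highest library was LG replicate 4, at 129 CPM. Olig1 and Olig2 were both at 0.06 with the block. Among the markers of myelinating oligodendrocytes, Myrf, the transcription factor gene of myelination, passed as higher in LG with the block (0.60, edgeR adjusted p = 0.00871), where 0.111% of all genes did. It averaged 42.8 CPM in HG and 65.7 CPM in LG. The part of maturing cells in the members' values was not tested.

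Relatives of the marker genes were compared per kilobase. C1ql3 was at 3.26 and C1ql2 at 0.374 CPM per kilobase, against 40.9 for C1ql1, and neither passed (log2 fold change with the block 0.08 and 0.10). Lhfpl4 was at 15.8 CPM per kilobase, against 108 for Lhfpl3, with a log2 fold change of 0.01. Matn2, at 0.779 CPM per kilobase, was near Matn4 and had a log2 fold change of -0.29 (edgeR adjusted p = 0.293 with the block). Cbln1, which also carries a C1q domain, was at 0.12. Of the 11 relatives tested, 9 were higher and 2 lower in LG, and 0 passed in the 3 fits.

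The genes whose log2 CPM most resembled each member over the 8 libraries, among 11487 with a mean of at least 5 CPM, were Polr2a (Pearson r = 0.993) and Sik3 (0.993) for Cspg4, Npdc1 (0.985) and Ralgds (0.982) for C1ql1, and Myo5a (0.992) and Casc4 (0.965) for Vcan. For Bcan they were Nsmf (0.985) and Cystm1 (0.981), for Ncan Rnf215 (0.976) and Sox21 (0.968), and for Matn4 Hmga1 (0.969) and Lypd6 (0.966). Ptprz1 was closest to Nbeal1 (0.974) and Taok1 (0.969), Cspg5 to 1500011B03Rik (0.955) and Brd2 (0.952), and Lhfpl3 to Zyg11b (0.948) and Zfp93 (0.932). Among the members themselves the highest r was 0.827, between Bcan and Ncan, and the lowest -0.87, between Vcan and Bcan. The 8 libraries share 3 preparation codes, depth and base composition, so these values are descriptions.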

How the data were processed

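RNA was measured in 8 libraries, 4 HG and 4 LG, made from 100 ng of total RNA and read as paired ends of 150 bp. The deposited values are raw counts by Ensembl gene ID. Per the submitters' processing notes, CASAVA 1.8.2, STAR, featureCounts and DESeq2 were used with mm10. Annotation release, strand setting and multi-mapping rules: not given in the sources used here. Reads of overlapping antisense genes therefore cannot be told apart. The library totals exceed the read pairs that the labels state, and whether mates were counted singly is not known. Symbols were found for 52073 of the 56980 IDs with GENCODE M21.

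Genes were filtered with filterByExpr, scaled by TMM and tested with edgeR 4.0.16 in R 4.3.3 by the quasi-likelihood test, with Benjamini-Hochberg adjustment over all 18905 genes and a threshold of 0.05. The main test had no block. The preparation test used the 3 codes with the group as a term. SE is the absolute log2 fold change over the root of F. CPM values use TMM factors and log2 CPM a prior count of 2. Deviations from group means correlated between same-numbered libraries at r from 0.448 to 0.625 over genes and at most 0.419 between other numbers, so the numbers were taken to pair the libraries. GC and length trends were fitted per library with mgcv 1.9.3 and known for 97.5% of tested genes. Chi-square per degree of freedom between libraries of a group was at least 17.2, so none repeats another. DESeq2 1.42.0, limma-voom (limma 3.58.1), other scaling and filters, and left-out libraries were alternatives. The tests were tried on simulated data. All members, plus list genes that passed in the 3 LG against HG fits and the 3 most abundant per list, were named by rule. Adgrb3, Adamts4, Adamts5, Hapln1, Matn2 and C1ql2 were named beside it after their values were seen. So were the genes of the closing section and the cell type markers. The members and lists were chosen with earlier results of these data known. The labels call the preparations independent, yet numbers 1 and 2 share a code, so p-values may in part measure technical spread.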

Additional observations from a re-analysis of the deposited data

Results flagged for a closer look

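In 18 groups of 4 libraries, made of the 9 genes in each glucose group, 2 had 1 library far from the other 3. Chance gives about 1 in 20 such groups. Ptprz1 was highest in LG replicate 2, at 11.42 log2 CPM (2739 CPM), with the other LG libraries at 2188 to 2248 CPM. Without that library its log2 fold change was -0.25, against -0.17 with all 8 libraries. Bcan was highest in HG replicate 2, at 9.01 log2 CPM (517 CPM), with the other HG libraries at 419 to 426 CPM. Without that library its log2 fold change was 0.33, against 0.23 with all 8.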

How the results depend on the processing

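Without a block 0 genes and 0 members passed in LG against HG, also with limma-voom, other scaling, other filters, offsets alone and each library or preparation left out. The number of genes was 79 with the replicate block and 256 with GC and length offsets added, where 1 member (C1ql1) passed. It was 1 with the preparation as block, 17 with blocked sums per preparation, 4 by DESeq2 and 474 by DESeq2 with the replicate block, where 2 members (Bcan and C1ql1) passed. Leaving out 1 pair gave 0 to 148 genes with the replicate block, at 6 without pair 1, 0 without pair 2 and 39 without pair 3. With block and offsets it gave 23 to 485 genes (42 without pair 1, 98 without pair 3) and 0 to 1 members. These last fits, and the block with GC offsets only (225 genes, 1 member), were chosen after seeing the data. Pairing by number changed no other member's call in edgeR.

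C1ql1 and Bcan were above 0, and Ptprz1 and Vcan below 0, in 33 of 33 settings. The settings reuse the same 8 libraries, and the threshold of 0.01 keeps the main fit, so the count is not one of independent checks. Cspg4 was at -0.017 with block and offsets, -0.022 with offsets alone, -0.038 without preparation 1 and -0.049 with block and GC offsets only. Lhfpl3 was at 0.024, 0.026 and 0.041 in the first, second and last of these. Cspg5 was at -0.064 without preparation 1 and Ncan at -0.0011 with block and GC offsets only. With 1 library left out, Cspg4 ran from -0.10 to 0.17, Cspg5 from -0.0074 to 0.071, Ncan from -0.0041 to 0.14, Lhfpl3 from -0.087 to 0.0072 and Matn4 from -0.42 (without LG replicate 4) to 0.81 (without HG replicate 4). With the block and 1 pair left out, Cspg4 ran from -0.0076 to 0.099 and Cspg5 from -0.018 to 0.085. With block and offsets, Cspg4 ran from -0.042 to -0.0043 (-0.020 without pair 2, -0.016 without pair 4), Cspg5 from -0.021 to 0.059 and Lhfpl3 from 0.0082 to 0.043 (0.029 without pair 1, 0.021 without pair 2). The cause was not tested.

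Between preparations 1308 genes passed at a threshold of 0.01, against 2585 at 0.05, and 4 members passed with offsets. With 1 library left out 1575 to 2162 genes and 2 to 3 members passed. Matn4 had the widest interval of the 9 without a block (SE 0.53), and its SE with the replicate block was 0.12. Its lowest library held 123 counts.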

Other observations

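Genes of each list differed between preparation codes, beside 13.7% of all tested genes. In chondroitin sulfate synthesis 8 of 29 passed (27.6%), and of hyaluronan and tenascin genes 6 of 15. Of proteases and inhibitors 8 of 19 passed (42.1%), and of heparan sulfate cores 6 of 15. The lists of partners, with 9 of 22 (40.9%), and of relatives, with 6 of 11 (54.5%), also hold genes outside the matrix. The gene with the lowest adjusted p of each list is given here, chosen after the values were seen. Cd44, a hyaluronan receptor, was at 10.1 to 11.7 CPM in the code of numbers 1 and 2, at 2.81 to 2.91 CPM in number 3 and at 2.52 to 3.07 CPM in number 4. Mmp2, a gelatinase, ran the other way, at 0.828 to 1.01, 5.86 to 6.01 and 9.37 to 10.5 CPM. Plat, the tissue plasminogen activator, lay at 141 to 163, 69.4 to 75.7 and 61.9 to 73.0 CPM. Gpc4 was at 16.5 to 18.9, 3.55 to 4.64 and 3.73 to 4.02 CPM, and Papss2 at 3.22 to 3.85, 0.525 to 0.575 and 0.576 to 0.866 CPM. Lhfp was at 11.6 to 14.1, 5.61 to 6.19 and 5.36 to 5.46 CPM. Gpr17, of the progenitor markers (11 of 26 passed), was at 682 to 1014, 1241 to 1695 and 2079 to 2424 CPM. The summed astrocyte markers moved with the same codes, and their part in these values was not tested.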
